A study of Mus musculus with 81 samples.

Results

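The 10 nuclear receptor genes examined here encode the receptors that tributyltin (TBT) activates and the receptors that form dimers with them, namely Rxra, Rxrb and Rxrg (the retinoid X receptors), Ppara, Ppard and Pparg (the peroxisome proliferator-activated receptors), Nr1h2 and Nr1h3 (the liver X receptors) and Thra and Thrb (the thyroid hormone receptors). They were chosen by name from 21951 protein-coding genes, of which 15375 hold at least 1 LTR locus, a long terminal repeat left in the genome by an endogenous retrovirus. The RNA was read only at such loci, so a receptor gene was read through the LTR loci that lie wholly inside its gene body: 168 loci of the 970384 in the tables, 130 after loci of 1 intron with identical values were counted once. Of these 130, 114 held a read, and all of them were used.

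Retinoid X receptors bind DNA as partners of the other receptors listed here, and in some of these dimers a ligand of either partner can change which genes the dimer switches on. Peroxisome proliferator-activated receptors govern fatty acid oxidation and fat cell formation, liver X receptors govern cholesterol and lipid synthesis, and thyroid hormone receptors set the timing of maturation, which in the testis includes the end of Sertoli cell proliferation. TBT is an organotin compound that activates retinoid X receptors and PPARγ, the product of Pparg.

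All samples came from testes of E18.5 male fetuses of the OG2 mouse strain, in which the Pou5f1 promoter and distal enhancer drive EGFP in prenatal germline cells. F0 dams drank water with 50 nM TBT or with the vehicle DMSO, starting before mating, so that F1 fetuses were exposed in utero and F3 fetuses were not. Every group carries the same transgene, and within a population and generation the groups differ in the exposure of the F0 dam. Cell sorting gave P4 and P5, both EGFP-positive germline cells that differ in side scatter, and P6, the EGFP-negative somatic cells. RNA was measured in 62 libraries: F1 P4 (5 DMSO, 7 TBT), F1 P5 (4 and 7), F1 P6 (5 and 7), F3 P4 (4 and 5), F3 P5 (4 and 5) and F3 P6 (4 and 5). Methylated DNA, captured with a methyl-CpG-binding domain protein (MBD), was counted in 19 libraries of P6 cells: F1 (3 DMSO, 4 TBT) and F3 (5 and 7). The methods call the MBD samples independently generated, with separate litters named for F1; for RNA the sources used here do not say whether libraries of 1 group came from separate litters, so its p-values measure the spread between these libraries, which may be technical.

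The libraries held 246520 to 8161548 reads at LTR loci, and TBT 5 and TBT 9 of F3 P4 (833449 and 1187234 reads) and TBT 5 of F3 P5 (246520 reads) stand apart. The next shallowest of F3 P5 were DMSO 2 and DMSO 1 (1606422 and 2017404 reads). In F1 P6, TBT 7 and TBT 8 had 8.66% and 8.79% of their reads outside protein-coding genes, against 2.20% to 3.20% in the other libraries of F1 P6; without them 0 of 9844 genes were called there in place of 3, and no receptor gene either way. Levels are counts-per-million (CPM) after the trimmed mean of M values (TMM) scaling that the authors applied. Germ cell and P6 libraries, and F1 and F3 libraries, were scaled in separate tables, so levels are tested only inside a table and set side by side between tables. The sorted populations carried their markers: 17 germ cell markers summed to between 449 and 22784 CPM in P4 and P5 libraries against 44.5 to 277 CPM in P6 libraries, and 9 Sertoli markers to between 1767 and 3807 CPM in P6 libraries against at most 1442 CPM in P4 and P5. Leydig markers and interstitial and peritubular markers were likewise higher in P6. Endothelial and blood cell markers did not separate P5 from P6, at 106 to 170 CPM in F1 P5 DMSO and 111 to 176 CPM in F1 P6 DMSO libraries. In bulk samples of sorted cells, fewer cells of a type and less RNA per cell cannot be told apart.

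The sequences that carry the main values are shown here from GRCm38.p6 (mm10), plus strand, 5′ to 3′, with CpG dinucleotides in capitals. The first pair are the only LTR loci inside Thra, at chr11:98757445-98757526 and chr11:98758839-98758860, both in an intron of 3852 bp that 3 of the 4 protein-coding transcripts share; the fourth does not reach the loci. The 82 bp locus is also part of an exon of a noncoding Thra transcript. The others are the best read locus of Thrb in germ cells (intron 5, chr14:17934324-17934467) and the last LTR locus of Rxrg (intron 10, chr1:167638409-167638485).
Thra MT2B2: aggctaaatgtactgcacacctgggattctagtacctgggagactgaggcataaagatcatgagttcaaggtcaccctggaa
Thra MT2B: gtccagcagtggtggcacacac
Thrb RLTR27: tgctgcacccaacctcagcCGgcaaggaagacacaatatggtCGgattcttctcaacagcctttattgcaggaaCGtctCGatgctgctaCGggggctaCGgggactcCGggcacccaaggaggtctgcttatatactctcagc
Rxrg RLTR20C1_MM: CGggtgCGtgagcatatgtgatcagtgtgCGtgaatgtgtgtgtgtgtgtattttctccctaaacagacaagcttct
The Thra loci hold no CpG, the Thrb locus holds 7 in 144 bp and the Rxrg locus 3 in 77 bp.

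The reads at these loci followed the intron and not the repeat. Introns are numbered here along the chromosome between the merged exons of all annotated transcripts. In Rxra, 3 loci of intron 2 held 1405 to 1412 reads over the 62 libraries and 3 loci of intron 4, up to 21932 bp apart, held 1405 to 1406, while the locus of intron 9 held 2268. In Ppara, 12 loci of intron 5, from 44 to 372 bp long, held 379 to 400 reads, those of intron 7 453 to 454, and both loci of intron 10 held 497. In Rxrg the count grew toward the 3′ end, from 123 to 128 reads in intron 1, through 181 to 194 in intron 2 and 528 to 563 in intron 3, to 1502 to 1513 in intron 10. In these genes, loci of very different length and family thus held similar numbers of reads when they shared an intron. Loci of 1 intron differed more in Pparg, from 12 to 44 reads in intron 3 and from 7 to 17 in intron 10, and in Ppard, from 69 to 105 in intron 2. The sources do not state whether a spliced read whose gap spans a locus was counted there. A gene sum, the CPM summed over the distinct loci of a gene, may therefore count the same reads several times where an intron holds several loci, and sums are not compared between genes.

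**Figure D1:**
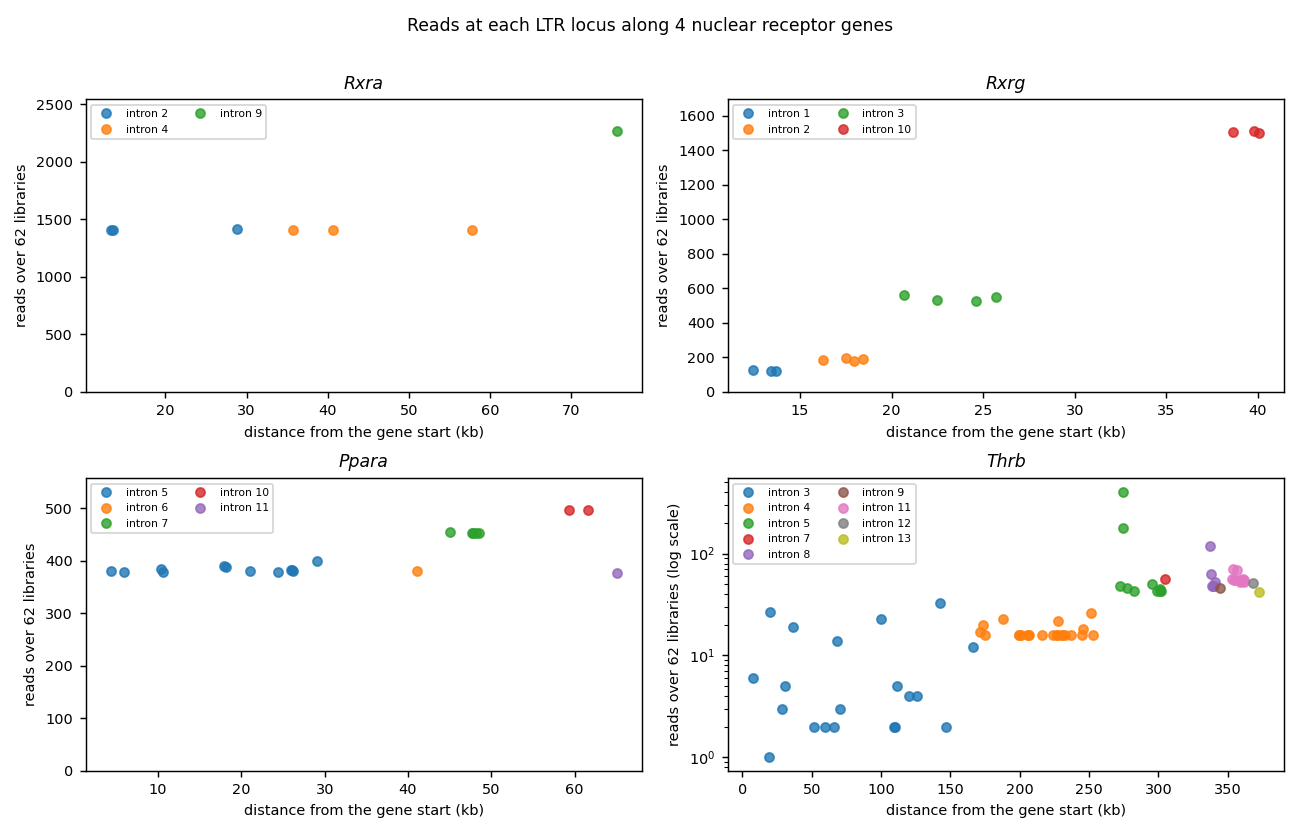
Reads at each LTR locus summed over the 62 RNA libraries (y axis, linear from 0 for Rxra, Rxrg and Ppara and a log scale for Thrb) against the distance of the locus from the gene start in kb, coloured by intron. Loci of 1 intron form flat steps, such as 1405 to 1412 reads in intron 2 of Rxra, and in Thrb the RLTR27 locus of intron 5 stands above its neighbours with 407 reads.

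Thrb departed most from this pattern. It spans 377830 bp of chromosome 14 from position 17660261 and holds 90 LTR loci, 49 of them distinct and with a read; 28 lie inside another annotated gene, and without strand those reads cannot be assigned. Its intron 5 held 43 to 50 reads at most loci, but 407 at RLTR27 and 178 at RLTR10A beside it. The RLTR27 reads came from the germ cells: the locus exceeded the median locus of its intron in 40 of 41 P4 and P5 libraries (384 reads against 20) and in 0 of 21 P6 libraries (23 reads at both). It was read in both generations and both exposures, with medians of 4 to 18 reads per library in the germ cell groups. In F1 P4 libraries it held 36 reads in DMSO and 38 in TBT, where the median locus of the intron held 0.

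By the DMSO means of both generations, Rxrg, Ppara and Nr1h3 had more reads in P4 and P5, and Rxra, Rxrb and Thra had more in P6. Ppard, Pparg and Thrb kept no such order. The tables are set side by side here with no test. The retinoid X receptors split within their own family. Rxrg in DMSO libraries averaged 48.08 ± 19.102 CPM in F1 P4 (SD, n = 5), 43.6 ± 6.25 CPM in F1 P5 (SD, n = 4) and 2.61 ± 1.66 CPM in F1 P6 (SD, n = 5), and the mean of P4 and P5 stood 17.6-fold above P6 in F1. In F3 it averaged 70.6 ± 20.5 CPM in P4 and 32.6 ± 28.6 CPM in P5 DMSO libraries (SD, n = 4 each), against 0, 0.450, 6.95 and 0 CPM in P6 DMSO libraries 1 to 4, whose mean rests on library 3, so that no fold is given. Rxrb, read at 1 RMER17A2 locus in intron 4, ran the other way, with 4.55 ± 1.59, 4.13 ± 1.32 and 17.1 ± 1.95 CPM in the same groups, or 3.94-fold more in P6 in F1 and 3.93-fold in F3. Rxra lay between them, at 32.1 ± 13.9, 24.0 ± 7.99 and 40.4 ± 2.10 CPM, 1.44-fold and 1.98-fold more in P6. The P6 DMSO libraries of Rxrg and of Rxrb did not overlap the germ cell DMSO libraries of their generation, except for Rxrg in F3, where P6 DMSO 3 (6.95 CPM) passed the lowest P5 library (5.14 CPM). The share of all genes that separate P6 from germ cells in this way was not computed.

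Thra, which encodes thyroid hormone receptor alpha, had the largest ratio of somatic to germ cells among the 9 genes read: 7.54 ± 4.78, 5.69 ± 1.55 and 65.6 ± 14.4 CPM in F1 P4, P5 and P6 and 9.47 ± 4.63, 3.67 ± 4.97 and 68.1 ± 4.92 CPM in F3. The P6 level was 9.92-fold the germ cell mean in F1 and 10.4-fold in F3. Thrb showed no such order, with 4.59, 14.4 and 8.80 CPM in F1 and 7.78, 25.3 and 5.82 CPM in F3.

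Ppara, the receptor that drives fatty acid oxidation, was read more in germ cells, at 37.8 ± 12.3, 22.02 ± 7.03 and 7.48 ± 4.68 CPM in F1 and 33.2 ± 15.2, 22.4 ± 21.998 and 10.7 ± 6.34 CPM in F3. Nr1h3, the liver X receptor alpha gene, was read mainly in germ cells: 8.45 ± 2.17, 6.19 ± 1.51 and 0.230 ± 0.249 CPM in F1, and 10.8 ± 2.84, 3.89 ± 0.992 and 0.261 ± 0.307 CPM in F3, with 2 of 5 and 2 of 4 P6 DMSO libraries at 0. Of its 2 loci, MTE2b held 1319 reads over all libraries and lies in no other gene, and MT2B, which lies inside another annotated gene, held 18. Pparg, the receptor of TBT that drives fat cell formation, was near the floor everywhere, and 3 of its 13 loci lie inside another annotated gene. Its DMSO means ran from 0.0457 to 0.826 CPM over the 6 populations, and each of the 12 groups except F1 P5 TBT had at least 1 library at 0. Ppard averaged 0.623 to 11.97 CPM in DMSO libraries, with single libraries from 0 to 47.2 CPM; many of its loci share an intron, where the same reads may be counted more than once. Nr1h2, the liver X receptor beta gene, holds no LTR locus in its 4336 bp and could not be read in RNA.

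**Figure D2:**
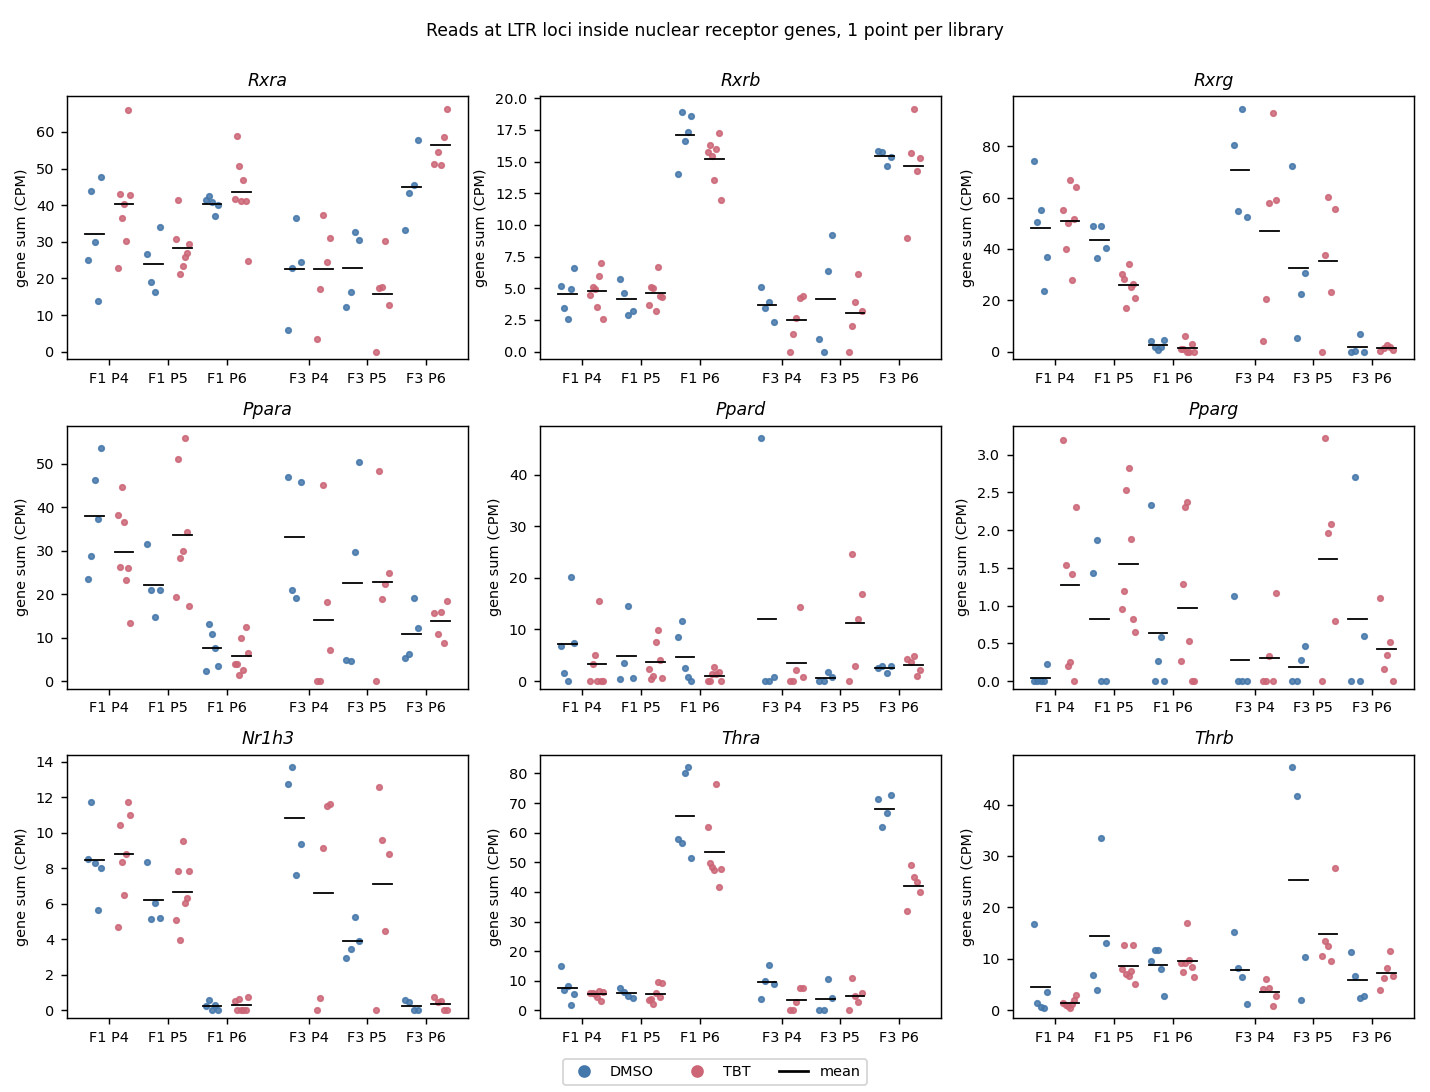
CPM gene sum of 9 receptor genes in each RNA library (points, DMSO blue and TBT red; black lines are group means), by generation and sorted population. By DMSO means Thra and Rxrb stand highest in P6, and Rxrg, Nr1h3 and Ppara in P4 and P5. In F3 TBT libraries Ppara averaged 14.1 CPM in P4 and 13.9 CPM in P6. The TBT points of Thra in F3 P6 lie at 33.5 to 49.0 CPM, all below the DMSO points at 61.9 to 72.7.

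The effect of F0 exposure on the receptor genes was tested in each population with limma on log2(CPM + 1 unit), a unit being the value of about 1 read, over every gene with a mean of at least 5 units. No receptor gene passed a false discovery rate (FDR) of 0.05 in any of the 6 populations. The background was as low: 0% of 11318 genes were called in F1 P4 (808 at an unadjusted p under 0.05), 0% of 12322 in F1 P5 (939), 0.0297% of 10104 in F1 P6, 0% of 11202 in F3 P4 (196), 0% of 11896 in F3 P5 (75) and 0.00972% of 10292 in F3 P6. Between 7 and 9 receptor genes were tested in a population; Pparg passed the filter only in F1 P5 and Nr1h3 in the germ cells only. The likelihood ratio test of edgeR called 12, 40, 16, 3, 0 and 56 genes in these populations and DESeq2 called 11, 39, 19, 9, 0 and 67. Among the receptors both called Thra in F3 P6 and no other. The median log2 difference of the tested receptors was -0.11, 0.08, -0.30, -1.08, -0.01 and 0.34 in the 6 populations in the order above, beside 0.02, 0.04, -0.01, -0.63, 0.02 and 0.00 over all genes tested. Over the 54 combinations of receptor gene and population, the DMSO and TBT libraries did not overlap in 2, Thra in F3 P6 and Rxrg in F1 P5. Both are among the 47 combinations that passed the filter (4.26% of these), and over all genes tested the share was 1.21%. By population 0.309%, 1.01%, 0.267%, 2.1%, 0.479% and 3.25% of all genes tested did not overlap, in the order above.

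Thra was lower in the F3 P6 cells of the TBT lineage. The gene sum was 71.4, 61.9, 66.5 and 72.7 CPM in DMSO libraries 1 to 4 and 33.5, 44.99, 43.2, 39.9 and 49.0 CPM in TBT libraries 5 to 9. The highest TBT library thus lay below the lowest DMSO library, with means of 42.1 ± 5.85 (SD, n = 5) and 68.1 ± 4.92 CPM (SD, n = 4). As a gene sum the log2 difference was -0.70 ± 0.13 (SE) and missed the threshold (limma FDR = 0.26). As single loci both Thra repeats shown above were called: Thra MT2B2 fell by 0.69 ± 0.13 (SE, limma FDR = 0.042) and Thra MT2B fell by 0.71 ± 0.13 (SE, limma FDR = 0.036). They share an intron and held similar counts, 3026 and 2975 reads over all libraries, and are taken as 1 observation.

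Of the 104835 loci tested in F3 P6, 0.0343% were called, 0.0143% lower in TBT; 10 of them lie in receptor genes and 2 of those 10 were called. The call of the gene sum changed with the test. With 1 value per intron for every gene the limma FDR was 0.034, with the edgeR likelihood ratio test 0.0027 and with DESeq2 0.00029, while the edgeR quasi-likelihood test gave 0.31. Thra MT2B2 overlaps an annotated exon and kept its own value in the first of these settings. Both Thra loci were thus still summed as before, and that FDR moved only through the values of other genes. Leaving out 1 library at a time ended the call of both loci without TBT 5, 6, 7 or 8 or DMSO 1 or 4, and of Thra MT2B2 also without DMSO 3 (limma FDR from 0.030 to 0.16 over the 9 fits), and the direction stayed the same.

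The levels of other cell types in these libraries are given next, and their part in the result was not tested. No marker gene was called in F3 P6, and the median log2 differences of the lists were -0.01 (endothelial and blood cell), 0.09 (interstitial and peritubular), -0.03 (Sertoli), -0.38 (Leydig) and -1.34 (germ cell). The 10 endothelial and blood cell markers summed to 106.9 to 136.4 CPM in DMSO and 137.0 to 167.8 CPM in TBT libraries. These ranges only just failed to overlap, and how often sums of other gene sets do so was not computed. Interstitial and peritubular markers (8 genes) summed to 3023 to 4037 CPM against 3941 to 4490 CPM, Leydig markers (6 genes) to 1169 to 1430 CPM against 954 to 1283 CPM, and Sertoli markers to 1767 to 3074 CPM against 1983 to 2697 CPM. Germ cell markers summed to 54.1 to 277 CPM in DMSO against 44.5 to 54.3 CPM in TBT, with 2 of the 17 at 0 in every DMSO library and 1 in every TBT library. All other marker lists had no gene at 0 in every library of a group.

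In F1 P6 cells, whose fetuses were exposed in utero, Thra ranged from 51.5 to 82.1 CPM in DMSO (median 57.7) and from 41.7 to 76.4 CPM in TBT libraries (median 48.3). These groups overlapped. The log2 difference was -0.30 ± 0.17 (SE, limma FDR = 1.00), and whether it differs from that of F3 was not tested, since the tables are scaled apart.

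Rxrg, the retinoid X receptor gamma gene, was lower in the F1 P5 cells of TBT-exposed dams by gene sum without passing the threshold. DMSO libraries 43-4, 43-5, 44-1 and 48-4 held 48.8, 36.4, 48.9 and 40.4 CPM, and the 7 TBT libraries ran from 17.0 through a median of 26.4 to 34.3 CPM. No TBT library reached the lowest DMSO library. The log2 difference was -0.76 ± 0.20 (SE, limma FDR = 0.38), and over all alternatives the FDR ran from 0.066 to 0.63. The 4 loci of intron 3 and the 3 of intron 10 each had an unadjusted p under 0.05, with log2 differences from -1.14 to -0.48, where 6.89% of all loci had one. Loci of 1 intron held similar counts, so these 7 amount to about 2 observations. None of the 37 receptor loci tested was called, with 0.0106% of all loci called in F1 P5.

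In the F1 P4 cells Rxrg ran from 23.7 to 74.3 CPM in DMSO and from 27.8 to 67.0 CPM in TBT libraries, with a log2 difference of 0.13 ± 0.27. The exposure effect in P5 minus that in P4 was -0.89 ± 0.36 (SE, limma FDR = 0.91); 0% of genes were called in this test in F1 and 0% in F3, and no receptor gene was.

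None of the other receptor genes was called either. Rxra in F3 P6 held 33.3, 43.2, 45.6 and 57.9 CPM in DMSO and 51.3, 51.1, 58.6, 66.4 and 54.4 CPM in TBT libraries 5 to 9. The TBT values were high within the DMSO range or above it, at a log2 difference of 0.34 ± 0.16 (limma FDR = 0.58). Rxrb had log2 differences of 0.08, 0.17 and -0.17 in F1 P4, P5 and P6 and of -1.01, 0.06 and -0.11 in F3. Ppara ran from -0.40 to 0.54 in F1 and from -3.23 to 0.50 in F3, where 2 of 5 P4 TBT libraries were at 0. Pparg in F1 P5 was 1.44 ± 0.78 at 0 to 1.87 CPM in DMSO and 0.652 to 2.83 CPM in TBT libraries (limma FDR = 0.70), a difference of a few reads. In the other populations Pparg was under the filter on low values and was not tested. In F1 P4 it averaged 0.0457 CPM in DMSO, with 4 of 5 libraries at 0, and 1.27 CPM in TBT libraries, which ran from 0 to 3.20 CPM on 0 to 15 reads. In F3 P5 it held 0 to 0.462 CPM in DMSO and 0, 1.96, 2.09, 0.801 and 3.22 CPM in TBT libraries 5 to 9, the last on 11 reads.

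All 8 receptor genes tested in F3 P4 had a negative fitted log2 difference, none of them called, with a median of -1.08 and a range from -3.23 (Ppara) to -0.09 (Rxra). For Rxra the group means were 22.5 CPM in DMSO and 22.6 CPM in TBT libraries. The median of all genes tested was -0.63 in the same fit. Without the 2 TBT libraries of fewest reads the median of all genes was 0.47, and 4 of the 8 receptor genes turned positive, Rxra at 0.69 ± 0.64, Ppard at 1.35 ± 1.96, Rxrb at 0.04 ± 0.77 and Nr1h3 at 0.02 ± 0.56 (SE). Ppara stayed lower at -0.74 ± 0.68 and Thrb at -1.23 ± 1.05, and none of the 8 was called. With each library at the same total the median of all genes was -0.35. In F3 P5 the log2 differences ran from -1.39 to 3.08, the highest being Ppard at 3.08 ± 1.45 (limma FDR = 1.00). Ppard held 0, 0, 1.80 and 0.693 CPM in DMSO libraries 1 to 4 and 0, 2.95, 12.04, 16.8 and 24.6 CPM in TBT libraries 5 to 9. All TBT libraries but 1 lay above every DMSO library. The fit depends on the shallow libraries TBT 5 and DMSO 2. Without TBT 5 the median of all genes tested in F3 P5 moved from 0.02 to 0.89, and without TBT 5 and DMSO 2 it was 0.44. No receptor gene was called in either fit. Of single loci, 0% were called in F1 P4, 0.00341% in F1 P6, 0% in F3 P4 and 0% in F3 P5, and none of the 36, 9, 33 and 23 receptor loci tested.

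**Figure D3:**
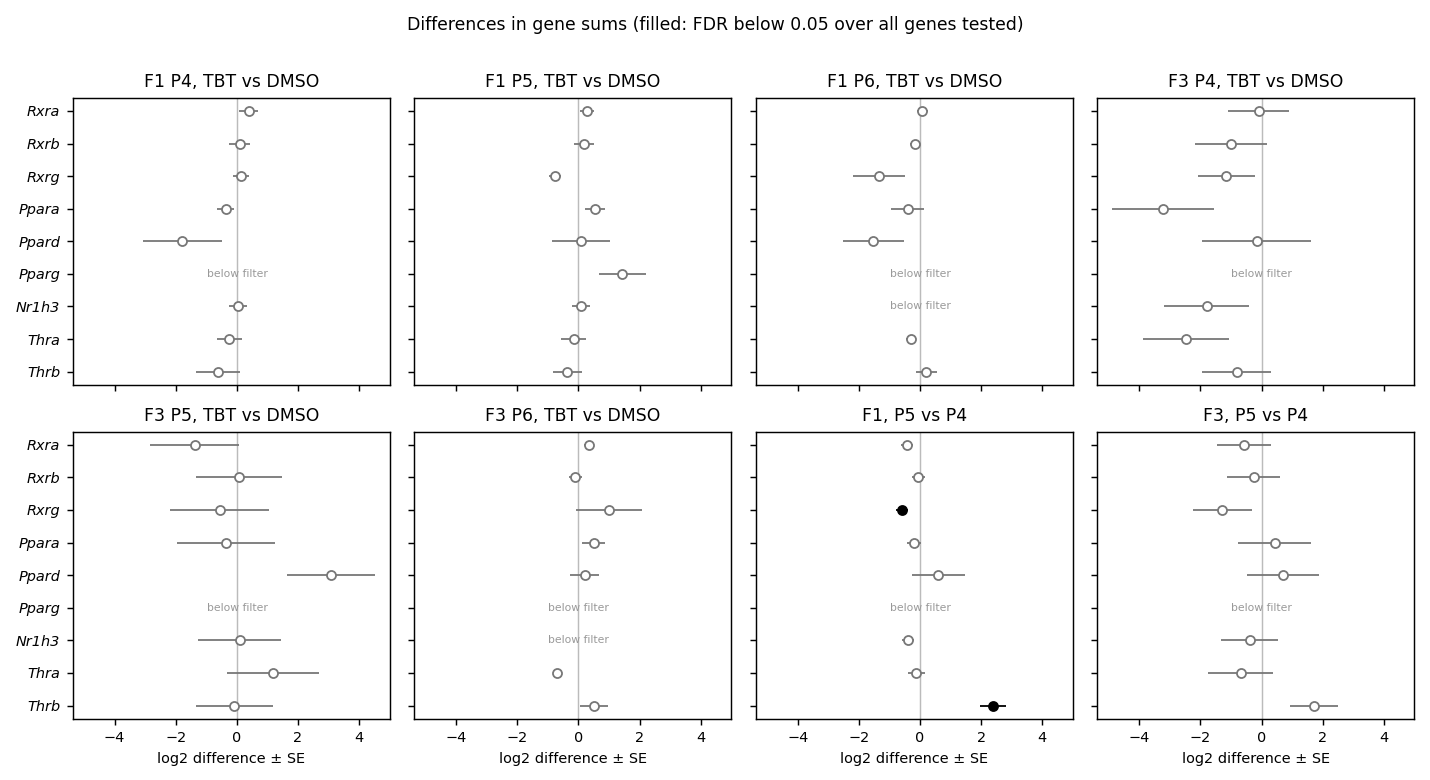
Log2 difference ± SE of each receptor gene sum (x axis) for TBT against DMSO in 6 populations and for P5 against P4 in both generations; filled points have an FDR below 0.05 over all genes tested. Only Thrb and Rxrg in F1 P5 against P4 are filled, at 2.38 and -0.60.

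P5 and P4 were compared inside the germ cell tables, with exposure as a covariate. In F1, Thrb was higher and Rxrg lower in P5, and these 2 of 8 receptor genes were called where 45.5% of all 11809 genes were, 24.1% higher and 21.3% lower. The median of the receptors was -0.16 beside 0.05 over all genes tested, and neither difference from the background was tested. With each library at the same total, 3438 genes were higher and 1492 lower in place of 2848 and 2521, and the median of all genes moved from 0.05 to 0.20.

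Thrb rose by 2.38 ± 0.43 (log2, SE, limma FDR = 9.5e-05). Its DMSO libraries held 16.8, 1.33, 0.693, 0.493 and 3.66 CPM in P4 and 6.94, 3.97, 33.4 and 13.1 CPM in P5. The DMSO groups overlapped through P4 library 43-4. The TBT libraries ran from 0.500 to 3.07 CPM in P4 and from 5.22 to 12.6 CPM in P5 and did not overlap. In DMSO libraries alone the difference was 2.21 (limma FDR = 0.14). The share of reads outside protein-coding genes was 5.32% to 9.51% in F1 P5 and 2.89% to 3.90% in F1 P4 libraries. In F3 P5 the highest Thrb levels, 47.3 CPM in DMSO 1 and 41.6 CPM in DMSO 2, stood in libraries with 29.0% and 34.3% of such reads, while TBT 5 with 39.7% held 10.5 CPM. The part of these reads in the Thrb difference was not tested.

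At Thrb RLTR27, the repeat printed above, the difference was 0.47 ± 0.39 (limma FDR = 0.36), short of a call. When loci inside another gene were left out, or when 1 value was taken per intron, Thrb fell below the filter. Markers of other cell types differed between these libraries as well. Of 8 Sertoli markers tested 5 were higher in P5 and 0 lower, among them Cst9 at 2.67 ± 0.53 and Fshr, the receptor of follicle-stimulating hormone, at 2.29 ± 0.72. The summed Sertoli markers had medians of 623 CPM in P4 and 730 CPM in P5 DMSO libraries and of 520 and 486 CPM in TBT libraries. Of 7 endothelial and blood cell markers 3 were higher, of 6 Leydig markers 2, and of 7 interstitial markers 2 were higher and 2 lower. Of 15 germ cell markers 13 were lower, such as Mael at -0.68 ± 0.09, and 2 were higher. Their part in the Thrb difference was not tested.

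Rxrg fell by 0.60 ± 0.19 (log2, SE, limma FDR = 0.013). In DMSO libraries alone the difference was -0.05 (FDR = 0.93), in TBT libraries alone -0.94 (FDR = 0.0022), and with each library at the same total -0.44 (FDR = 0.065). The difference between these 2 values is the exposure effect in P5 minus that in P4 given above, -0.89 ± 0.36 (limma FDR = 0.91), which was not called. At single loci 39.3% of all loci were called in F1, 17.6% higher and 21.6% lower, and 4 of 35 receptor loci: MLT1J2, ORR1E and RLTR20C1_MM of Rxrg intron 10, lower by log2 differences of -0.65, -0.64 and -0.65, and MTE2b of Nr1h3 intron 3 at -0.40 ± 0.16 (limma FDR = 0.046). Rxra had a log2 difference of -0.42 ± 0.19 (FDR = 0.082) and Nr1h3 as a gene sum -0.40 ± 0.19 (FDR = 0.088). P4 and P5 libraries carry shared numbers, and the sources do not state what a number marks. With the number as a replicate block Rxra was at -0.52 (limma FDR = 0.012), Rxrg at -0.70 (FDR = 0.0018) and Thrb at 2.23 (FDR = 8e-04), so that 3 of 8 gene sums were called, where 49.6% of all genes were, and 12 of 35 receptor loci, where 44.7% of all loci were. In F3 the block called 0 of 8 gene sums (1.28% of all genes) and 0 of 27 receptor loci (1.93% of all loci).

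In F3, 0.761% of genes were called between P5 and P4, 0.761% higher and 0% lower, and 0 of 8 receptor genes. The medians of the receptors and of all genes tested were -0.32 and 0.11. Thrb was at 1.70 ± 0.78 (limma FDR = 0.41) and Rxrg at -1.28 ± 0.97 (FDR = 0.65), the same signs as in F1 with wider errors. Of single loci 1.01% were called, 1% higher and 0.0112% lower, and 0 of 27 in receptor genes.

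The pathways around the receptors were read from lists of partners, coregulators and target genes. These lists and the marker lists share some genes, and a shared gene is counted in each. In the 6 exposure comparisons no gene of these lists was called. Between P5 and P4 in F1 the median over all genes was 0.05, with 24.1% of genes higher and 21.3% lower. The medians of the somatic markers in the same fit were 0.94 (Sertoli), 0.79 (Leydig) and 0.70 (endothelial and blood cell), and their part in the values of these lists was not tested. Of 9 liver X receptor target genes tested 5 were higher and 0 lower, with a median of 0.84; Abca1, the cholesterol exporter, stood at 2.68 ± 0.28, Srebf1, the regulator of lipid synthesis, at 1.11 ± 0.22 and Scd2, a fatty acid desaturase, at 0.99 ± 0.22. The sum of the list in F1 DMSO libraries was 295 to 372 CPM in P4, 492 to 627 CPM in P5 and 720 to 782 CPM in P6. Of 8 genes of thyroid hormone transport, conversion and response 4 were higher and 0 lower, with a median of 1.05, among them the transporters Slc16a10 (1.47 ± 0.57), Slc7a5 (1.28 ± 0.15) and Slc7a8 (0.81 ± 0.29), which also carry amino acids. This list summed to 252 to 883 CPM in P4, 438 to 930 CPM in P5 and 4920 to 5721 CPM in P6. Of 16 PPAR target genes 2 were higher and 7 lower, with a median of -0.33. Lpl (lipoprotein lipase), which is also 1 of the 5 higher liver X receptor target genes, stood at 2.16 ± 0.47. Hadha and Acsl1, of fatty acid oxidation and activation, stood at -0.55 ± 0.08 and -0.53 ± 0.09.

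Of 10 retinoid metabolism genes 2 were higher and 3 lower, with a median of -0.07; Stra8, the retinoic acid response gene of germ cells, stood at 0.89 ± 0.33 and Aldh1a2, which makes retinoic acid, at -0.86 ± 0.09. Of 5 further partners of the retinoid X receptors tested only Nr1i2 was called, at 1.58 ± 0.62. Of 19 other nuclear receptors 3 were higher, among them Rora at 1.31 ± 0.37, and 2 lower, and of 18 coregulators 2 were higher and 4 lower, among them Crebbp, a histone acetyltransferase, at -0.70 ± 0.13. The last 3 lists thus had 1 of 5, 5 of 19 and 6 of 18 genes called, where 45.5% of all genes were, and the difference was not tested. In F3 no gene of these lists was called between P5 and P4.

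Methylated DNA was read in P6 cells as raw counts per window of 100 bp. The F1 table holds 52 windows in 8 receptor genes or within 1 kb upstream of them, of 154773 in all. In F3 there are 42 windows in 7 receptor genes, of 164382. No receptor window is in both tables. Windows without a CpG made up 42.3% of the F1 and 38.1% of the F3 receptor windows, against 53.0% of all windows in each table. The library totals were 701493 to 938756 counts (F1 DMSO), 887213 to 1913353 (F1 TBT), 1105120 to 1376607 (F3 DMSO) and 1115086 to 1556376 (F3 TBT).

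The 2 windows that follow are the best covered coding window of Nr1h2, the receptor that RNA could not show, at chr7:44551401-44551500, and the most covered window of Rxrg, inside an ORR1E repeat of intron 10 at chr1:167638201-167638300. The build, strand and capitals are as above.
Nr1h2 window: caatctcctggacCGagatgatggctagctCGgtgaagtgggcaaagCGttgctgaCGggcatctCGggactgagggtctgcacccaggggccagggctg
Rxrg window: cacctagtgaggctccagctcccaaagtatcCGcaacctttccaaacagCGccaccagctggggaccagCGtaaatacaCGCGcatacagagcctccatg
Each holds 5 CpG. The Nr1h2 window had 19 to 33 counts in F1 DMSO and 40 to 60 in F1 TBT libraries. These raw ranges did not overlap, and after scaling the log2 difference was 0.02 (edgeR FDR = 1.00). The next window of Nr1h2 stood at 0.11.

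No receptor window or gene was called. Of windows 0.0318% of 34559 were called in F1 and 0% of 47563 in F3 (2455 at an unadjusted p under 0.05), against 0 of 8 and 0 of 12 receptor windows tested. Of gene sums 0.0116% of 8651 were called in F1 and 0% of 9407 in F3 (433 at an unadjusted p under 0.05), against 0 of 6 and 0 of 7 receptor genes. DESeq2 called 0 windows in F1 and 0 in F3, and the likelihood ratio test of edgeR 12 and 0, none of them in a receptor gene. Log2 differences of the tested receptor windows ran from -0.25 to 0.33 in F1 and from -0.52 to 0.32 in F3.

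In F3, 3 receptor windows had an unadjusted p under 0.05. The Rxrg window shown above held 13 to 21 counts in DMSO (mean 15.4) and 8 to 17 in TBT libraries (mean 10.6), a log2 difference of -0.52 (edgeR FDR = 0.95). A window of Pparg intron 12 at chr6:115479401-115479500 held 10 to 20 counts in DMSO and 3 to 16 in TBT libraries, at -0.50 (FDR = 0.96). A window in the last exon of Ppara at chr15:85801401-85801500, in its 3′ untranslated region, held 36 to 47 counts in DMSO and 37 to 61 in TBT libraries, at 0.30 (FDR = 0.95). All 3 pairs of ranges overlapped.

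Coverage was not ordered by the number of CpG sites. In Thra the window with 14 CpG sites in the 5′ untranslated region (chr11:98741901-98742000) held 0 to 1 counts in every F3 library, and the window of intron 15 without any (chr11:98763801-98763900) held 12 to 21. The first exon window of Ppara (chr15:85735701-85735800), with 8 CpG sites, held 0 to 4 counts. By contrast the window of Ppard intron 5 with 5 CpG sites (chr17:28276601-28276700) held 30 to 44 counts in DMSO and 27 to 50 in TBT libraries. Thra, the receptor with the RNA difference in F3 P6, had a window log2 difference of 0.09 (edgeR FDR = 0.99) and gene sums of 10.9 to 16.9 CPM in DMSO and 10.2 to 16.1 in TBT libraries.

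**Figure D4:**
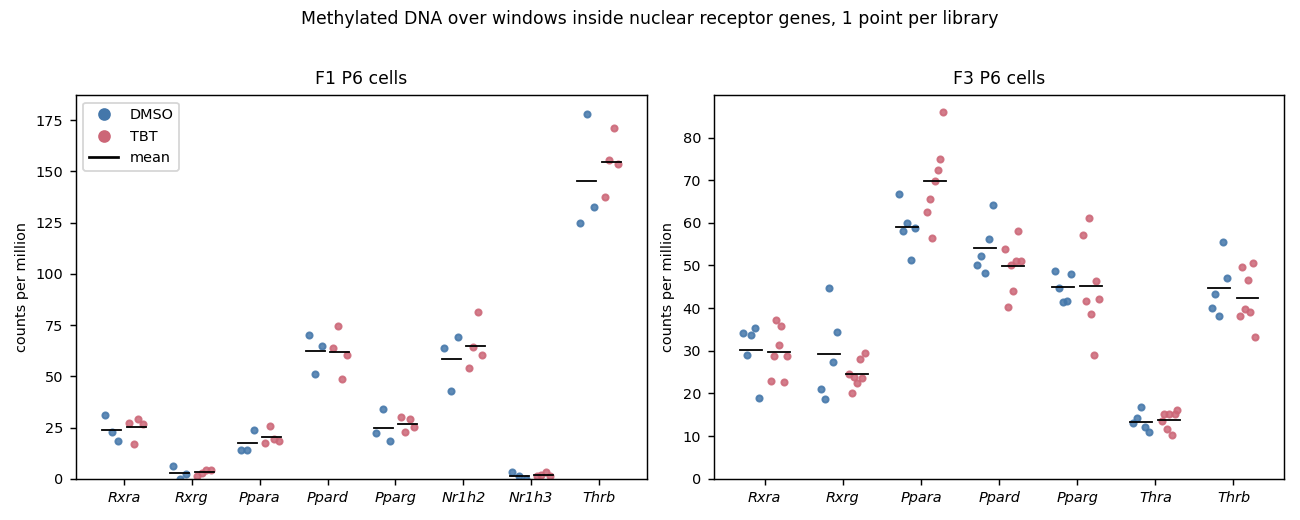
Counts-per-million (CPM) summed over the windows of each receptor gene in every MBD library of P6 cells (points, DMSO blue and TBT red; black lines are group means), F1 left and F3 right, with an axis from 0. The DMSO and TBT points of each gene overlap, as for Ppara in F3 at 51.4 to 66.8 against 56.5 to 86.1 CPM.

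For each receptor with a mean of at least 5 units in all 4 RNA tables, the genes with the most similar pattern were found by the mean over the tables of the Pearson correlation of log2 gene sums, across 9 to 23 libraries a table; libraries share depth and population, so these values are descriptive. Rxra came closest to Dennd5a (mean r = 0.77) and Urb1 (0.73), Rxrg to Ica1 (0.67) and Runx1t1 (0.66), and Rxrb to Plcb3 (0.61) and Pabpc1 (0.60). Thra came closest to Ecel1 (0.65) and also to Pabpc1 (0.63), Thrb to Dpp6 (0.63) and Ryr1 (0.62), Ppara to Atoh8 (0.61) and Lrrn2 (0.58), and Ppard to Cnot6 (0.56) and Rgs11 (0.55). The single tables were unequal, and their correlations ran from 0.10 to 0.92 for Thra with Pabpc1, from 0.09 to 0.86 for Rxrb with Plcb3 and from 0.20 to 0.84 for Rxrb with Pabpc1. Pparg and Nr1h3 fell below 5 units in at least 1 table.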

How the data were processed

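RNA and MBD libraries of sorted fetal testis cells were grouped by generation, population and F0 exposure as labelled, and all 81 were used. For RNA, the authors deposited a normalized signal per RepeatMasker LTR locus, CPM after TMM scaling, from reads trimmed with Trim Galore, aligned with STAR to mm10 and counted with a modified ERVmap. The oligo-dT kit is not stated to keep strand. Whole reads were recovered for 100% of values (tolerance 0.01). The MBD files hold unscaled counts of each 100 bp window as deposited, without scaling for CpG density or input, and as the other column the CpG number of the window, which matched the genome in 100% of 3360 F1 and 3875 F3 windows of chromosome 19. The aligner of the MBD reads is not given in the sources used here.

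LTR starts count from 0 (TG opened 53.6% of 347 loci read 1 base later, 2.017% as given), so 1 was added. Genes came from GENCODE on GRCm38 and sequences from the RefSeq assembly GRCm38.p6. Gene sums were tested over all protein-coding genes with limma 3.58.1 (trended, log2(CPM + 1 unit), mean of at least 5 units) and windows with edgeR 4.0.16 (quasi-likelihood, TMM, filterByExpr), two-sided, at a Benjamini-Hochberg FDR of 0.05. Alternatives used pseudocounts, filters, scalings, edgeR, DESeq2 1.42.0, the replicate block and each library left out. R 4.3.3 with the package data.table (1.17.8), Python 3.11.15, numpy 2.4.6, pandas 2.3.3 and matplotlib 3.10.9 were used.

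All 10 receptors are named, with their 2 best read loci or windows where these bear on a result, called loci and windows, and at most 4 called genes per list; 1 gene so chosen is not reported here. The 10 members and the lists were chosen with earlier results of these data known. The windows at an unadjusted p under 0.05 and Thrb RLTR10A were singled out after their values were seen.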

Additional observations from a re-analysis of the deposited data

Results flagged for a closer look

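In 11 of 130 groups of 4 to 7 libraries, RNA and MBD together, 1 library stood far from the others, each time in an RNA gene sum. No chance rate is given, since the rule always flags 1 library with reads among libraries at 0. Ppard reached 47.2 CPM in F3 P4 DMSO library 1 (others 0 to 0.701), 15.4 CPM in F1 P4 TBT library 47-3 (others 0 to 4.98) and 14.3 CPM in F3 P4 TBT library 7 (others 0 to 2.16). Pparg reached 2.34 CPM in F1 P6 DMSO library 1 (others 0 to 0.578), 1.16 CPM in F3 P4 TBT library 8 (others 0 to 0.332), 1.13 CPM in F3 P4 DMSO library 1 and 0.229 CPM in F1 P4 DMSO library 48-4, the others being 0 in the last pair of groups.

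Thrb reached 16.8 CPM in F1 P4 DMSO library 43-4 (others 0.493 to 3.66), 17.0 CPM in F1 P6 TBT library 8 (others 6.55 to 9.72), where 8.79% of reads lay outside protein-coding genes, and 27.6 CPM in F3 P5 TBT library 8 (others 9.63 to 13.5). Rxrg reached 6.95 CPM in F3 P6 DMSO library 3, whose other DMSO libraries held 0 to 0.450 CPM. Without F1 P4 DMSO library 43-4 Thrb was still called between P5 and P4, and without F3 P6 DMSO library 3 Rxrg was not called in F3 P6.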

How the results depend on the processing

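Over 22 comparisons and 345 alternatives the count of receptors called stayed within 1.5 times its value in 327, and 18 comparisons kept it under every alternative. Of the called values of receptor genes, loci and windows none turned in sign over 104 values under alternatives; of those not called 270 of 4153 did. In F3 P6 the gene sums called rose from 0 to 1 (Thra) with 1 value per intron, the likelihood ratio test and DESeq2, and the single loci called ran from 0 to 2 with 1 library left out. Taking 1 value per intron left the Thra sum itself unchanged. Between P5 and P4 in F1 the 2 gene sums called became 1 with libraries at the same total, with 1 value per intron and with loci in no other gene, 0 in DMSO libraries alone, and 2 to 4 with 1 library left out (4 without P4 TBT 45-3). The 4 loci called there became 1 without a filter, 0 with libraries at the same total and 12 with the replicate block. Same-numbered P4 and P5 libraries correlated at -0.12 to 0.37 over 20 pairs and best with their own number in 10, and the sources do not state that a number marks 1 animal or suspension; the block called 3 gene sums in F1 (49.6% of all genes) and 0 in F3 (1.28%). The cause of these changes was not tested. No number is shared between DMSO and TBT within a population, and P6, whose F3 libraries carry the numbers of P4 and P5, is set beside them with no test. Depth limits Pparg, Ppard, Thrb and the F3 germ cells, where a miss does not show that values are equal.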
